A study of Caenorhabditis elegans with 30 samples.

Results

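The cytochrome P450 genes of *C. elegans* were followed through 30 RNA-seq libraries of whole animals collected at the L4 stage and grown at 20 °C. The members were all genes whose WormBase name starts with cyp-, which gave 74 genes out of 19988 genes with a matched transcript, by a rule that uses the names alone. The libraries form 10 groups of 3. Wild-type N2, the deletion mutant *old-1(ok1273)* and the mutant *flor-1(icb93)* were each sequenced untreated and after exposure to an extract of *M. humicola*, an oomycete that infects nematodes. The strain list of the study gives *flor-1(icb93)* only together with the integrated reporter *icbIs5*, which carries *chil-27p::GFP* and *col-12p::mCherry*, so that the reporter cannot be told apart from the mutation here. Animals labelled *old-1p::old-1* carried *icbEx308*, with OLD-1::GFP driven by its own promoter and the markers *bus-1p::GFP* and *pBJ36*, and also *icbIs4*. The paper describes their controls as animals of the same population without the array, while the labels give N2 with *icbIs5*. The reporter insertion named thus differs between the groups, which a shared population would not give. Which is right is not known here, and a difference of reporter cannot be told apart from the array. Animals labelled *dpy-7p::old-1* carried *icbEX359*, in which the epidermal promoter of *dpy-7* drives *old-1* beside a hygromycin resistance marker, and their controls carried *icbEx360*, with that resistance marker and *pBJ36* but no *old-1* transgene. Both *old-1* transgenes are extrachromosomal arrays, which hold many copies and can be lost in some cells.

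Cytochrome P450 enzymes are heme proteins that insert an oxygen atom into lipids, steroids and foreign compounds, with electrons passed on by the reductase EMB-8 or, in mitochondria, by other carriers. In *C. elegans* many members are expressed in the intestine and are inducible by foreign chemicals, while others oxidise polyunsaturated fatty acids to eicosanoids or take part in making the lipid layer of the eggshell. OLD-1 is a receptor tyrosine kinase of the KIN-16 family and FLOR-1 is related to it, and the study asked what animals lacking or overexpressing these proteins do when they meet oomycete material. The comparisons of the *cyp* genes ask how extract changed their transcripts in each strain, whether that response differed between a mutant and N2, and how the untreated mutants and the overexpressing animals differed from their controls.

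Totals lay between 19214839 and 38956390 estimated counts per library, of which the *cyp* genes took between 0.0623% and 0.1116%. Levels of *cyp* genes are given in CPM (counts scaled to a common library size by the trimmed mean of M values). For *old-1* and for means of log2(CPM + 1), the scaling used library totals alone. Levels of *old-1* were 1.55 to 3.05 CPM in untreated N2 and 0.774 to 1.12 CPM in the untreated *old-1* mutant. They reached 42.5 to 60.4 CPM in *old-1p::old-1* against 0.575 to 0.978 CPM in its controls, and 48.8 to 80.1 CPM in *dpy-7p::old-1* against 0.960 to 1.44 CPM in the hygromycin control. A list of 15 oocyte and yolk genes set some libraries apart from others of their own group. Its mean log2(CPM + 1) was 2.04 in library A of untreated N2 but 5.46 and 6.03 in libraries B and C, and it lay between 1.93 and 1.98 in N2 with extract. It was 7.51 in library A of *old-1p::old-1* against 10.28 and 10.59 in B and C, and 5.40 in library C of the controls against 8.90 and 8.77 in A and B. In bulk RNA of whole animals, fewer cells of a type and less RNA per cell cannot be told apart. Transcript length exceeded the effective length used by kallisto by 154.6 to 165.4 bases in the 6 *flor-1* libraries and by 239.8 to 273.4 bases in the other 24, so that strain and library make-up cannot be told apart for *flor-1*. The labels do not say that the replicates of a group came from separate cultures, and p-values then measure the spread between these samples alone.

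The *cyp* genes are spread unevenly over the genome, with 41 on chromosome V, 12 on II, 7 each on IV and X, 6 on III and 1 on I (WBcel235). The longest run with gaps of at most 20 kb lies on chromosome V from 3936326 to 3972991 and holds 10 genes, *cyp-35A5*, *cyp-35B1* to *cyp-35B3* and *cyp-34A5* to *cyp-34A10*. A run of 8 genes, *cyp-13A1* to *cyp-13A8*, lies on chromosome II from 9779181 to 9807569, and *old-1* itself lies on the same chromosome at 9866464 to 9868747, 58.9 kb beyond the end of the run.

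Most *cyp* transcripts were scarce at this stage. Per length, in TPM (a transcript's share after division by its effective length), 14 members averaged at least 10 TPM over the 30 libraries, 33 averaged 1 to 10 TPM and 27 averaged under 1 TPM. Counts were found in all 30 libraries for 62 members. The most abundant was *cyp-35A2*, one of the genes of a group inducible by foreign compounds and linked to fat storage, with a mean of 66.7 TPM (33.5 to 107 TPM) and 15.1% of the family's summed TPM. It was followed by *cyp-35C1*, likewise inducible by foreign compounds, at 42.5 TPM (24.9 to 57.4 TPM). Next came *cyp-14A5* at 19.4 TPM, *cyp-35A3* at 19.3 TPM, *cyp-31A2* and *cyp-31A5* both at 16.9 TPM, *cyp-37A1* at 16.6 TPM, *cyp-13A2* and *cyp-42A1* both at 15.6 TPM and *cyp-31A3* at 14.4 TPM, and the ranges of these neighbours in the order all overlap, as do those of *cyp-35A2* and *cyp-35C1*. These 10 genes held 55.1% of the summed TPM. The family as a whole summed to 394.7 to 427.8 TPM in untreated N2 and to 405.7 to 496.5 TPM in N2 with extract. The sum was 366.6 to 385.3 TPM in the untreated *old-1* mutant and 451.5 to 523.7 TPM in the untreated *flor-1* mutant, and neither range overlapped that of untreated N2. As a share of counts, without division by length, both mutants overlapped untreated N2, at 0.0801% to 0.0843% and 0.0755% to 0.0854% against 0.0762% to 0.0803%, and the *old-1* mutant was not the lower. It was widest in *old-1p::old-1*, at 507.3 to 678.8 TPM, where *cyp-13A5* alone reached 172 TPM in 1 library.

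**Figure D1:**
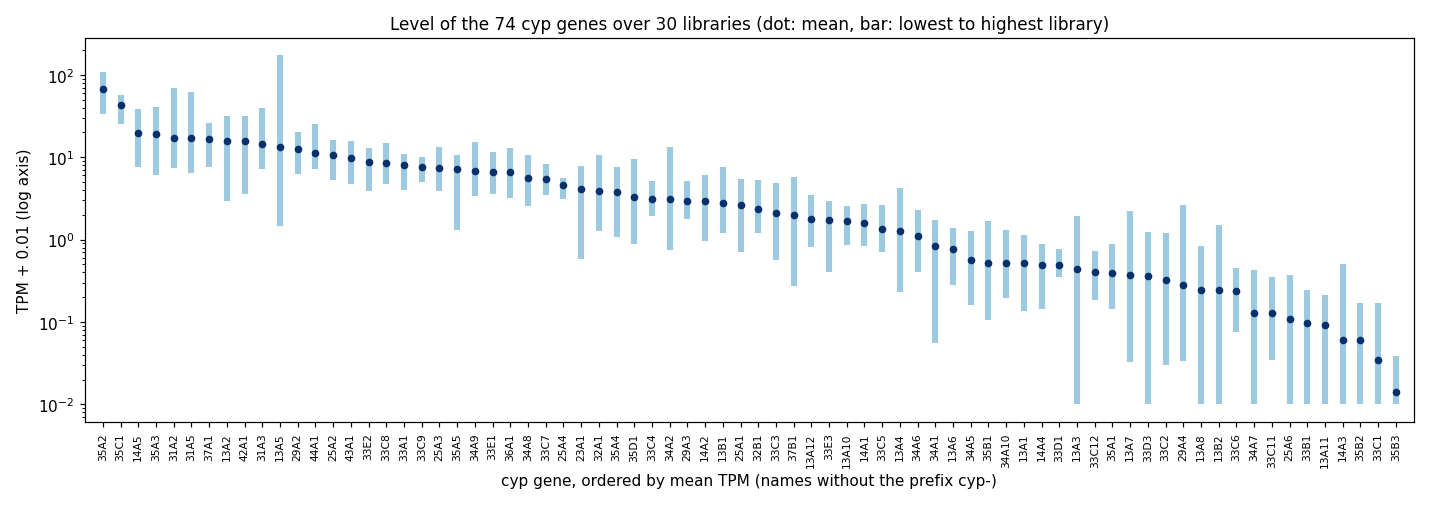
TPM + 0.01 (log axis) of the 74 *cyp* genes, ordered by mean, with a dot for the mean over 30 libraries and a bar from the lowest to the highest library. *cyp-35A2* and *cyp-35C1* come first, with means of 66.7 and 42.5 TPM.

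Extract changed the *cyp* genes of N2 in both directions. Of 69 members tested, 12 rose and 11 fell (edgeR quasi-likelihood test, p under 0.01 and Benjamini-Hochberg adjusted p under 0.1), against 14.7% of all 16850 genes called higher and 20.4% called lower. In this fit of all 18 libraries the members' shares, 17.4% higher and 15.9% lower, are near this background. The median log2 fold change was 0.20 over the *cyp* genes and -0.01 over all genes. Fitted with the N2 libraries only, 14 members were called, beside 2275 of all genes. The members that rose included *cyp-14A5*, 4 genes of the *cyp-34A* group, *cyp-13A3*, *cyp-32B1* and *cyp-37B1*, and those that fell included *cyp-25A1* and *cyp-25A2*, *cyp-29A2* and *cyp-29A3*, and *cyp-13A12*. In the same comparison all 15 oocyte and yolk genes, 8 of 8 sperm genes and 4 of 7 germline genes were called lower, and 7 of 8 body wall muscle markers too, while 6 of 8 neuron markers were called higher. Of 10 epidermis markers 4 were called higher and 1 lower, and of 10 intestine markers 2 were called lower. With the mean level of the oocyte and yolk genes as a covariate 22 members were called, of which 17 were among the 23. Calls over all genes went from 5901 to 2469 in that setting, a larger drop than that of the members. Within the groups of the extract experiment that level differed mainly in untreated N2, so the covariate rests largely on library A against B and C. The part of the other lists was not tested.

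The smallest adjusted p of a gene that rose belonged to *cyp-14A5*, whose family is known for induction by foreign compounds. It stood at 17.3, 16.8 and 17.5 CPM in untreated N2 and at 36.4, 34.1 and 25.8 CPM with extract. All extract libraries lay above all untreated ones, with library C the lowest of the treated, and the log2 fold change was 0.90 ± 0.10 (SE, n = 3 against 3, adjusted p = 1.37e-05 by edgeR). *cyp-34A9* went from 10.6, 8.31 and 7.66 CPM to 28.8, 23.8 and 16.1 CPM. Its groups did not overlap either, library C was again the lowest treated one, and the log2 fold change was 1.37 ± 0.20 (adjusted p = 0.000135 by edgeR). *cyp-32B1* stood at 3.08, 3.36 and 3.22 CPM untreated and at 10.2, 8.38 and 6.52 CPM with extract, a log2 fold change of 1.38 ± 0.22.

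A pair of scarce members changed most in size. *cyp-37B1* had 0.501, 1.49 and 2.24 CPM in untreated N2 and 11.2, 7.70 and 4.16 CPM with extract, which gave a log2 fold change of 2.44 ± 0.41 (adjusted p = 0.000369 by edgeR). The untreated libraries differed widely among themselves, yet all lay below the extract libraries. *cyp-13A3* had 0.847, 0.385 and 0.432 CPM untreated and 2.82, 2.11 and 3.72 CPM with extract, without overlap (log2 fold change 2.34 ± 0.31). Among the *cyp-34A* genes 4 of 8 rose and none fell, with a median log2 fold change of 0.94. They were *cyp-34A5* (1.63), *cyp-34A8* (0.41), *cyp-34A9* and *cyp-34A10* (1.39), all from the run on chromosome V. With the untreated group reduced to library A, whose oocyte and yolk level was like that of the extract libraries, 2 *cyp-34A* genes were called, since *cyp-34A8* was then at 0.32 (adjusted p = 0.157 by edgeR) and *cyp-34A10* at 0.60 (adjusted p = 0.434). The same change ended the calls of *cyp-42A1*, at 0.40 against 0.25 with library A alone, and *cyp-37A1*, at 0.24 against 0.14. Leaving out untreated library C, extract library A or extract library C also ended the calls of these 2 genes, with log2 fold changes from 0.25 to 0.50 and from 0.15 to 0.30. The call of *cyp-34A10* was lost without untreated library B or C or extract library A or B (1.14 to 2.11).

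The fall of *cyp-25A2* had the smallest adjusted p of all members in N2. Its levels were 29, 31.3 and 27 CPM untreated and 13, 11.3 and 13 CPM with extract, 2 tight and separate groups (log2 fold change -1.22 ± 0.09, adjusted p = 1.62e-07 by edgeR). Its neighbour *cyp-25A1* on chromosome III went from 4.89, 8.97 and 8.28 CPM to 2.29, 1.62 and 2.60 CPM (log2 fold change -1.76 ± 0.22), again without overlap. *cyp-29A2* fell from 40.0, 36.8 and 36 CPM to 24.9, 21.5 and 26.6 CPM, a log2 fold change of -0.63 ± 0.07, and its groups were also separate. *cyp-13A12*, which oxidises polyunsaturated fatty acids downstream of EGL-9 and HIF-1 in the response to oxygen, had 6.93, 5.12 and 5.89 CPM untreated and 3.14, 4.11 and 2.80 CPM with extract (log2 fold change -0.84 ± 0.17, adjusted p = 0.00148 by edgeR). *cyp-29A3*, which makes eicosanoids from fatty acids, fell by 0.81 on the log2 scale. *cyp-33E2*, known for the same kind of reaction, was at 22.8, 19.2 and 18.5 CPM untreated and at 18.9, 18.1 and 17.1 CPM with extract, groups that overlap (log2 fold change -0.17, adjusted p = 0.136 by edgeR). It was at -0.34 and called against untreated library A alone (adjusted p = 0.0323), and at -0.36 and called with the covariate (adjusted p = 0.0219).

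The abundant *cyp-35* genes depended on which untreated libraries were used. *cyp-35A2* had 52.7, 78 and 76.6 TPM in untreated N2 and 107, 97.6 and 73.9 TPM with extract, so that the groups overlapped and the log2 fold change of 0.34 was not called. Against untreated library A alone it was 0.84 and called. *cyp-35C1* had 74.9, 108 and 111 CPM untreated and 73.2, 71.2 and 66.2 CPM with extract, and its fall of 0.48 on the log2 scale became -0.10 and was no longer called against library A alone. *cyp-35A3* followed *cyp-35A2*, at 0.36 over all libraries and 0.85, called, against library A alone. *cyp-13A2* reversed, from 0.05, not called, to -0.55, called. With the untreated group reduced in this way the count was 22, of which 17 were among the 23 of the full comparison.

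**Figure D2:**
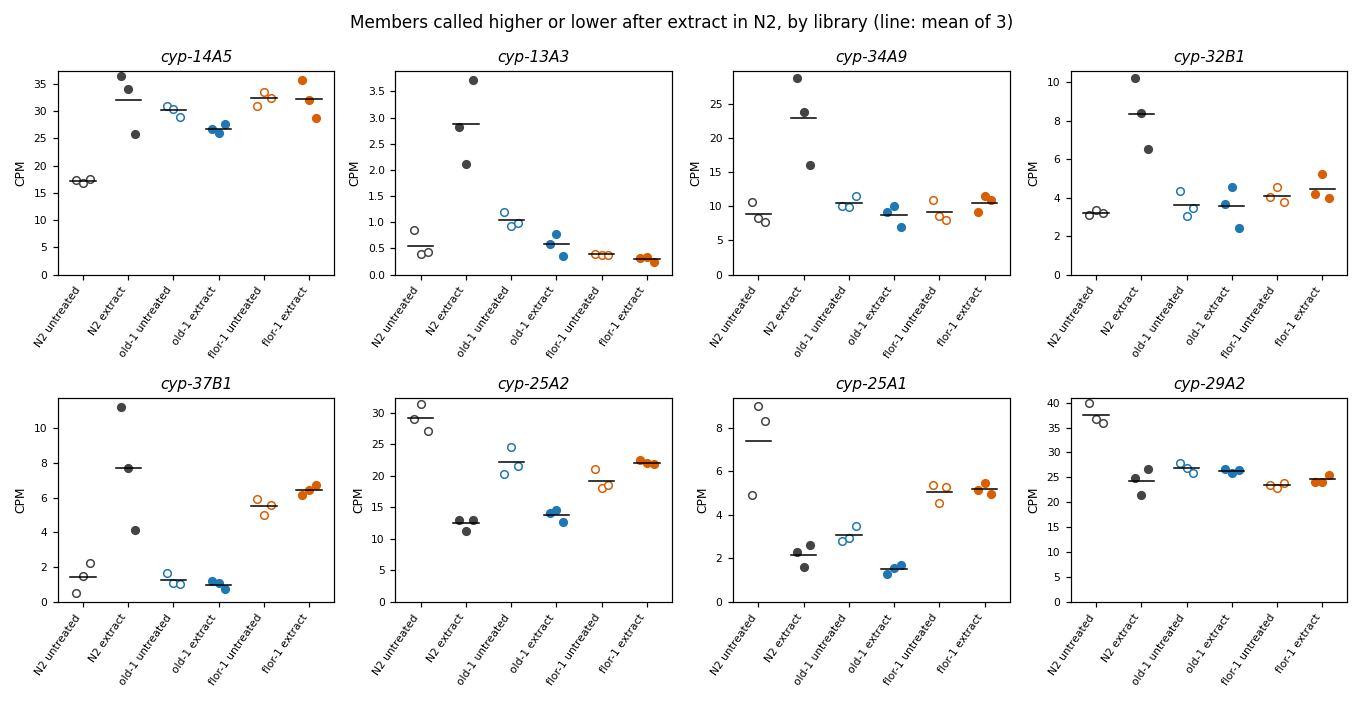
CPM (linear axes from 0) of 8 *cyp* genes in the 18 libraries of the extract experiment, 1 point per library, hollow for untreated and filled for extract, with a line at the mean of 3. In N2 the hollow and filled points of *cyp-14A5* and *cyp-34A9* are apart, and in *flor-1(icb93)* they lie together.

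In the *old-1* mutant the same exposure was followed mainly by lower values. Of 69 members tested, 1 rose and 13 fell, beside 12.7% of all genes called higher and 11.3% called lower, and the median was -0.21 over the *cyp* genes against -0.01 over all genes. The count fell to 9 without untreated library C, and also to 9 without extract library C. The single gene that rose was *cyp-43A1* (log2 fold change 0.25), and its call was lost without untreated library B or C or extract library A (0.19 to 0.32). The *cyp-13A* genes made up 6 of the 13 that fell, of 11 tested, with a median of -0.95. *cyp-13A5* went from 17.5, 19.6 and 20.0 CPM to 5.47, 6.74 and 6.87 CPM. All 3 extract libraries lay far below all untreated ones (log2 fold change -1.58 ± 0.24, adjusted p = 0.000151 by edgeR). *cyp-13A2*, the most abundant of that group, had 92.9, 100 and 99.1 CPM untreated and 63.5, 62.8 and 56.6 CPM with extract (log2 fold change -0.68 ± 0.21, adjusted p = 0.0274 by edgeR). Its groups did not overlap, and its call was lost without any 1 of the 6 libraries (-0.71 to -0.62). *cyp-13A7*, a gene inducible by rifampicin, fell by 1.72 and *cyp-13A6* by 1.27 on the log2 scale. *cyp-33E2* fell from 25, 24.7 and 27.4 CPM to 16.4, 15.5 and 16 CPM, 2 separate groups (log2 fold change -0.69 ± 0.08). Genes that fell in N2 and were called lower here as well were *cyp-25A2* (-0.69), *cyp-25A1* (-1.02), *cyp-33C8* (-1.13), *cyp-35C1* (-0.50) and *cyp-29A3* (-0.71, lost without extract library C, with values from -0.79 to -0.60 over the libraries left out).

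The difference between the responses of the *old-1* mutant and N2 was tested as an interaction, with 3 members higher in the mutant and 15 lower of 69 tested, beside 18% and 13.1% of all genes, and with medians of -0.35 over the *cyp* genes and 0.00 over all genes. The largest differences belonged to *cyp-13A3* (-3.18 ± 0.45 on the log2 scale), *cyp-37B1* (-2.76), *cyp-34A5* (-1.86) and *cyp-34A9* (-1.62). With extract these genes stood at 0.358 to 0.781 CPM, 0.715 to 1.20 CPM, 1.11 to 1.28 CPM and 6.99 to 10.1 CPM in the mutant. *cyp-14A5* was at 31, 30.4 and 28.9 CPM in the untreated mutant and 26.7, 25.9 and 27.6 CPM with extract. Its level in the untreated mutant was thus already above that of untreated N2, and the response differed by -1.07 ± 0.15. Differences of opposite sign, meaning a smaller fall in the mutant, belonged to *cyp-29A2* (0.60), *cyp-25A2* (0.53) and *cyp-13A12* (0.73). The call of *cyp-13A12* was lost without any 1 of 10 of the 12 libraries (0.61 to 0.91), N2 untreated B and N2 extract B being the exceptions.

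In *flor-1(icb93)* no member was called after extract. edgeR called 0 higher and 0 lower of 69, and the background was 0% of all genes in each direction, with 2 members (*cyp-25A2* at 0.20 and *cyp-35D1* at 0.37 on the log2 scale) and 644 of all genes at an unadjusted p under 0.05. DESeq2 and limma also called 0 members. *cyp-25A2* was at 21, 18.1 and 18.5 CPM untreated and 22.4, 22 and 21.8 CPM with extract. *cyp-34A9* was at 10.9, 8.64 and 7.95 CPM untreated and 9.12, 11.5 and 10.9 CPM with extract, groups that overlap. The response differed from that of N2 for 14 members, with 8 higher and 6 lower beside 14.4% and 9.48% of all genes, and with medians of -0.05 over the *cyp* genes and 0.01 over all genes. Among them were *cyp-25A1* (1.80), *cyp-25A2* (1.43 ± 0.13) and *cyp-29A2* (0.70) with a higher response, and *cyp-13A3* (-2.68), *cyp-37B1* (-2.21), *cyp-32B1* (-1.25), *cyp-34A9* (-1.17) and *cyp-14A5* (-0.90) with a lower one. Both differences use the same N2 libraries.

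The *cyp* genes of the mutants also differed from N2 without extract. In the untreated *old-1* mutant 12 members were higher and 7 lower of 69, beside 15.7% and 23.3% of all genes, with medians of -0.04 and -0.03. In the untreated *flor-1* mutant 10 were higher and 19 lower, beside 20.9% and 19.8% of all genes, with medians of -0.29 and 0.04. On the TPM scale with limma this split was 18 higher and 7 lower, with the median of all genes at 0.26. For the *old-1* mutant it was 8 higher and 10 lower with the median at -0.12. With the oocyte and yolk level as a covariate 6 members were higher and 7 lower in the *old-1* mutant, and 8 of these were among the 19 of the main fit. In the *flor-1* mutant the covariate gave 7 higher and 17 lower, and 18 of these were among the 29 of the main fit. Calls over all genes went from 6577 to 4468 in the first and from 6860 to 6003 in the second. Both comparisons share the untreated N2 libraries. All 15 oocyte and yolk genes and all 8 sperm genes were called lower in the *old-1* mutant, while 7 of 15 and 3 of 8 were called higher in the *flor-1* mutant. The median of the intestine markers was -0.07 in the *old-1* mutant, where 3 of 10 were called lower, and -0.33 in the *flor-1* mutant, where 6 of 10 were. Of 8 body wall muscle markers, 5 were lower in the first and 7 in the second (medians -0.24 and -0.66). Neuron markers were higher for 6 of 8 in the first and lower for 1 in the second. Of 10 epidermis markers 2 were higher and 3 lower in the first, and 2 higher and 4 lower in the second. Of 6 pharynx markers 1 was higher and 2 lower in the first, and 2 were lower in the second.

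*cyp-14A5* was higher in both untreated mutants. Against 17.3, 16.8 and 17.5 CPM in N2 it had 31, 30.4 and 28.9 CPM in the *old-1* mutant (log2 fold change 0.81 ± 0.10, adjusted p = 2.98e-05 by edgeR) and 31, 33.5 and 32.4 CPM in the *flor-1* mutant (0.91, adjusted p = 4.77e-06). Neither mutant overlapped N2. *cyp-29A2* was lower in both, at 27.8, 26.9 and 25.8 CPM and at 23.4, 22.9 and 23.8 CPM against 40.0, 36.8 and 36 CPM in N2. The log2 fold changes were -0.49 and -0.69. *cyp-25A2* was likewise lower in both (-0.39 and -0.60). *cyp-43A1* went opposite ways, with 21.6, 20.0 and 19.3 CPM in N2, 14.7, 12.9 and 12.9 CPM in the *old-1* mutant (-0.58) and 26.1, 25.5 and 26.5 CPM in the *flor-1* mutant (0.36). Against untreated N2 library A alone the last value was 0.25 and not called.

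Several members with a described role stood out in the *flor-1* mutant. *cyp-13A12* had 2.01, 1.35 and 1.78 CPM against 6.93, 5.12 and 5.89 CPM in N2, a log2 fold change of -1.81 ± 0.18 (adjusted p = 9.78e-07 by edgeR) without overlap. The other genes of fatty acid oxidation were lower too, *cyp-29A3* by -1.19 and *cyp-33E2* by -0.58. *cyp-35D1*, which metabolises the anthelmintic thiabendazole, was higher, with 9.63, 10.3 and 10.4 CPM against 3.70, 4.68 and 3.49 CPM (1.36 ± 0.18, adjusted p = 2.32e-05). Its response to extract in that strain was not called. *cyp-37B1*, which rose in N2 with extract, was already at 5.94, 4.98 and 5.56 CPM in the untreated *flor-1* mutant against 0.501, 1.49 and 2.24 CPM in N2 (1.96, adjusted p = 0.000971 by edgeR), and at 6.15 to 6.71 CPM in that mutant with extract. *cyp-37A1*, among the abundant members, had 22.4, 20.4 and 21.1 CPM against 38.9, 38.7 and 32 CPM (-0.78, adjusted p = 1.63e-06). The eggshell genes *cyp-31A2* and *cyp-31A3* were slightly higher (0.39 and 0.50) and so was their close relative *cyp-31A5* (0.68). These genes share much sequence, and kallisto divides reads that fit more than 1 of them, so the split among the 3 is uncertain. The oocyte and yolk level was 6.77 to 7.03 in the *flor-1* libraries. With that level as a covariate *cyp-37B1* was at 1.01 (adjusted p = 0.0738 by edgeR), *cyp-31A2* at 0.18 (adjusted p = 0.142) and *cyp-31A3* at 0.17 (adjusted p = 0.258), none of them called.

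Of the 8 *cyp-13A* genes in the run on the chromosome of *old-1*, 4 were called higher in the untreated *old-1* mutant and none lower, beside 15.7% of all genes called higher. They were *cyp-13A2*, *cyp-13A5*, *cyp-13A6* and *cyp-13A7*, while *cyp-13A1*, *cyp-13A3*, *cyp-13A4* and *cyp-13A8* were not called. Over all 11 *cyp-13A* genes tested, *cyp-13A10* was called higher as well and the median log2 fold change was 0.86. *cyp-13A5* had 10.3, 5.94 and 5.18 CPM in untreated N2 and 17.5, 19.6 and 20.0 CPM in the mutant (1.41 ± 0.24, adjusted p = 0.00028 by edgeR). *cyp-13A2* had 65.7, 39.1 and 25.6 CPM in N2 and 92.9, 100 and 99.1 CPM in the mutant (1.16 ± 0.21, adjusted p = 0.000563). For both genes library A of N2 was the highest of its group, and yet below every library of the mutant. Without mutant library A the calls of *cyp-13A6* and *cyp-13A7* were lost, and that of *cyp-13A7* also without N2 library B or mutant library B, with log2 fold changes of 0.61 to 1.11 and of 1.14 to 1.49 over the libraries left out. Against library A of N2 alone 2 *cyp-13A* genes were called higher and the median was 0.45. In that setting *cyp-13A6*, *cyp-13A7* and *cyp-13A10* were at 0.45, 1.11 and 0.54 and were not called. In the *flor-1* mutant no *cyp-13A* gene was called higher, and *cyp-13A2* was lower at 24.9, 22.3 and 23.5 CPM (-0.88). With the oocyte and yolk covariate that value was -0.07 and not called (adjusted p = 0.676 by edgeR). With extract *cyp-13A5* was in the *old-1* mutant at 5.47 to 6.87 CPM, within the range of untreated N2.

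**Figure D3:**
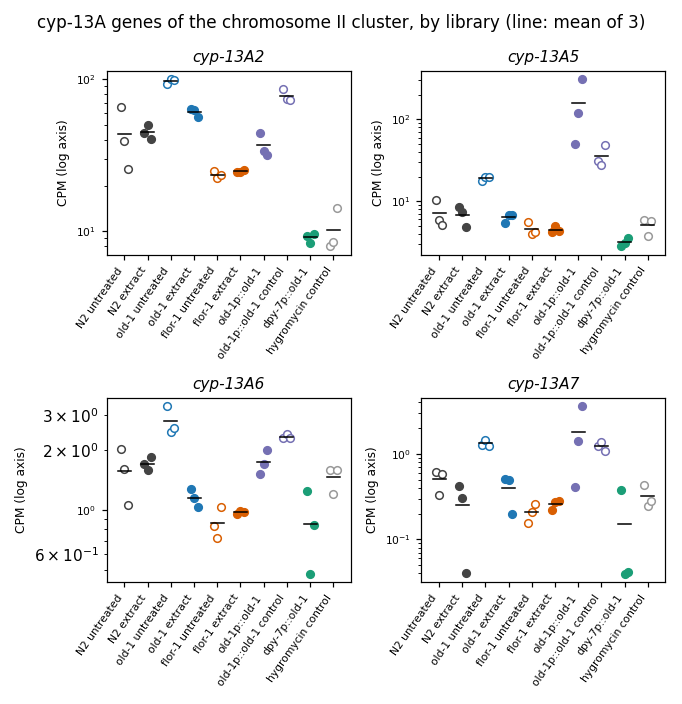
CPM (log axes, scaled within each experiment) of 4 genes of the *cyp-13A* run on chromosome II in all 10 groups, 1 point per library and a line at the mean of 3. *cyp-13A5* is highest in *old-1p::old-1*, at 49.6 to 310 CPM, and in the extract experiment highest in the untreated *old-1* mutant, at 17.5 to 20.0 CPM.

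Overexpression of *old-1* from its own promoter gave no called member when all libraries were used. edgeR called 0 higher and 0 lower of 65 tested, beside 0.0921% and 0.0246% of all 16285 genes, and 11 members had an unadjusted p under 0.05. DESeq2 called 8 members and limma 0, beside 1394 and 65 of all genes. The log2 fold change had a median of 0.10 over the *cyp* genes and 0.11 over all genes. The spread between libraries was wide. *cyp-13A5* had 49.6, 121 and 310 CPM in *old-1p::old-1* and 31, 27.8 and 48.8 CPM in the controls. Every transgenic library was above every control, the lowest only just, and the log2 fold change was 2.16 ± 0.64 (adjusted p = 0.211 by edgeR). *cyp-13A2* had 44.6, 33.7 and 31.8 CPM against 85.7, 74.3 and 72.9 CPM, 2 separate groups at -1.08 ± 0.20 (adjusted p = 0.147). On simulated data for this comparison the test recovered 16 of 100 genes changed by 2 on the log2 scale and 0 of 100 changed by 1.

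Library A of *old-1p::old-1* and library C of the controls stood apart in their oocyte and yolk genes, as given above. Without library A alone, 14 members were called, 6 higher and 8 lower, beside 3750 of all genes. Without both, in a comparison of 2 against 2 chosen after the data had been seen, 14 members were higher and 11 lower, beside 21.2% and 24% of all genes. Other tissue markers moved as well over the 3 libraries of each group, although no marker gene was called. Intestine markers summed to 2690 to 3760 CPM in *old-1p::old-1* against 5470 to 6600 CPM in the controls, epidermis markers to 584 to 2740 CPM against 2910 to 3360 CPM, pharynx markers to 301 to 644 CPM against 790 to 820 CPM and neuron markers to 431 to 466 CPM against 516 to 686 CPM, without overlap in any of these sums. As a mean of log2(CPM + 1) the groups overlapped for epidermis, at 5.13 to 6.94 against 6.88 to 7.60, and for neurons, at 5.17 to 5.70 against 5.62 to 6.06. The sums of body wall muscle, germline and sperm markers overlapped between the groups. The part of these tissues in the values of the *cyp* genes was not tested. In the comparison of 2 against 2 all 5 *cyp-35A* genes were lower, from -0.90 for *cyp-35A2* to -1.93 for *cyp-35A1*, and so was *cyp-42A1* (-1.92, adjusted p = 0.000329 by edgeR). *cyp-42A1* had 32.3 CPM in library A of *old-1p::old-1*, 9.34 and 8.38 CPM in B and C, and 28.8 to 31.9 CPM in the controls, so that library A lay above all controls and the other libraries far below. Higher in the same comparison were *cyp-13A5* (2.7) and the *cyp-31A* genes *cyp-31A5* (1.19), *cyp-31A2* (1.09) and *cyp-31A3* (0.74). *cyp-31A2* had 27.9 CPM in library A, 99.3 and 116 CPM in B and C, 48.1 and 41.4 CPM in control libraries A and B and 18.6 CPM in control library C. It followed the order of the oocyte and yolk level over these 6 libraries. With that level as a covariate over all 6 libraries, 6 members were called, beside 1959 of all genes, and no *cyp-31A* gene was among the 6.

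Expression of *old-1* in the epidermis was followed mainly by lower *cyp* levels. Of 66 tested, 8 were higher and 22 lower, beside 24.9% of all 16141 genes called higher and 20.9% called lower. The median log2 fold change was -0.53 over the *cyp* genes and -0.09 over all genes. Without *dpy-7p::old-1* library 1 the count was 19. With the oocyte and yolk level as a covariate it was 12, of which 5 were higher and 7 lower. On the TPM scale with limma it was 15, of which 7 were higher and 8 lower. Intestine markers were lower in the same comparison, 8 of 10 called, with a summed level of 3410 to 4690 CPM against 6000 to 7950 CPM in the hygromycin control. All 8 body wall muscle markers were called lower too, as were 4 of 6 pharynx and 4 of 8 neuron markers. Of 10 epidermis markers 2 were called higher and 3 lower. Of the oocyte and yolk, germline and sperm lists, 7 of 15, 6 of 7 and 7 of 8 genes were called higher. The part of oocytes or of other tissues in the values of the *cyp* genes was not tested.

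The smallest adjusted p of the genes that rose belonged to *cyp-31A2*, of the eggshell lipid layer, and its relatives. *cyp-31A2* had 59.3, 56.9 and 46.8 CPM in *dpy-7p::old-1* and 17.2, 16.9 and 16.8 CPM in the hygromycin control, a log2 fold change of 1.68 ± 0.12 (adjusted p = 9.65e-06 by edgeR). *cyp-31A3* had 39.1, 33.7 and 35.4 CPM against 13, 18.1 and 14.8 CPM (1.24 ± 0.14), and *cyp-31A5* had 33.9, 35 and 28.9 CPM against 12.7, 12.7 and 11.7 CPM (1.40 ± 0.12). None of the 3 overlapped between groups, and with the oocyte and yolk covariate *cyp-31A3* was at 0.98 and no longer called. *cyp-34A2* had 22.1, 15.8 and 25.7 CPM against 9.60, 9.91 and 11.5 CPM (1.03, adjusted p = 0.00116). *cyp-13A3*, induced by extract in N2, had 0.975, 0.318 and 1.59 CPM here against 0, 0 and 0.238 CPM, and the test called it higher (adjusted p = 0.0122). *cyp-44A1*, of the mitochondrial type, was higher as well, at 0.64, and with the covariate it was at 0.24 and not called.

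Among the 22 that fell, *cyp-37A1* had 14.7, 12.4 and 12.8 CPM against 22.1, 28.4 and 27.6 CPM (-0.97, adjusted p = 0.000334 by edgeR), without overlap. *cyp-13A12* had 2.02, 1.55 and 1.59 CPM against 3.78, 4.23 and 4.04 CPM (-1.22, adjusted p = 0.001). *cyp-29A2* fell from 28.5, 23.1 and 23.5 CPM in the control to 12.3, 18.9 and 16 CPM (-0.67), a call that was lost without *dpy-7p::old-1* library 1 or control library 1 (-0.82 to -0.52). With the oocyte and yolk covariate *cyp-13A12* was at -1.35 (adjusted p = 0.138 by edgeR) and *cyp-29A2* at -0.66 (adjusted p = 0.321), neither called. As given above, that covariate cannot be parted from the transgene in this comparison. The other members that fell included 7 of 15 tested *cyp-33* genes, among them *cyp-33C3* (-1.64), *cyp-33C5* (-1.09) and *cyp-33E2* (-0.64), and the foreign-compound genes *cyp-35A3* (-0.77), *cyp-35A4* (-0.55), *cyp-35C1* (-0.64) and *cyp-35D1* (-0.97). The calls of *cyp-35A3* (-0.92 to -0.57) and *cyp-35C1* (-0.84 to -0.50) were lost without *dpy-7p::old-1* library 1 or 3 or control library 2 or 3, that of *cyp-35A4* (-0.59 to -0.49) without any library but control 1, and that of *cyp-33E2* (-0.72 to -0.54) without control library 1. With the oocyte and yolk covariate *cyp-33E2* was at -0.23 (adjusted p = 0.71 by edgeR), *cyp-33C5* at -1.23 (adjusted p = 0.181), *cyp-35A4* at -0.63 (adjusted p = 0.351), *cyp-35D1* at -0.86 (adjusted p = 0.262) and *cyp-34A9* at -0.86 (adjusted p = 0.281), none of them called. *cyp-34A9*, which rose in N2 with extract, was lower here, at 7.39, 8.82 and 8.50 CPM against 10.9, 11.6 and 17.6 CPM (-0.70, adjusted p = 0.0134 by edgeR), and the call was lost without *dpy-7p::old-1* library 1 or 3 or control library 3 (-0.80 to -0.45). *cyp-14A5* was at 66.6, 68.5 and 71.0 CPM against 59.5, 48.7 and 59.6 CPM, separate groups at 0.30 that were not called (adjusted p = 0.0397, with an unadjusted p above 0.01).

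**Figure D4:**
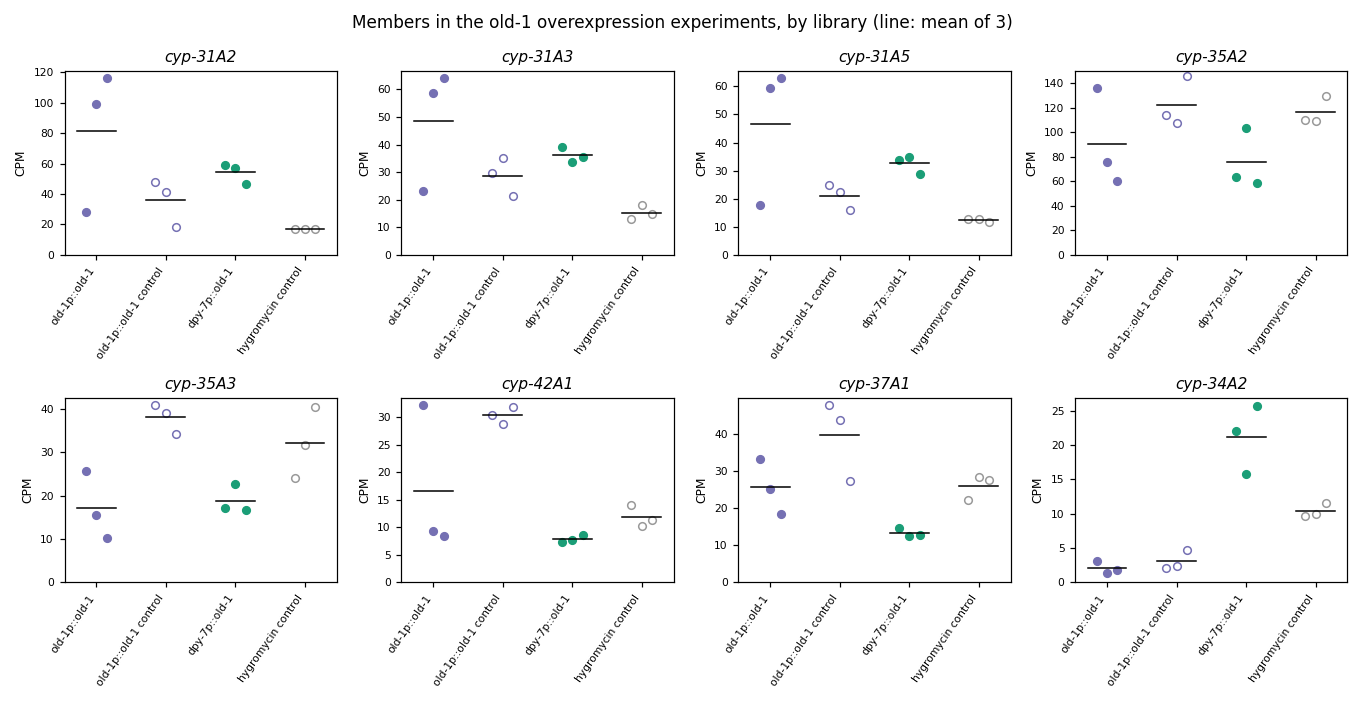
CPM (linear axes from 0, scaled within each experiment) of 8 *cyp* genes in both overexpression experiments, 1 point per library, hollow for controls and filled for *old-1* transgenes, with a line at the mean of 3. *cyp-31A2* lies at 46.8 to 59.3 CPM in *dpy-7p::old-1* above 16.8 to 17.2 CPM in the hygromycin control, and in *old-1p::old-1* its libraries overlap with the controls.

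A list of 24 genes without the prefix cyp- held partners of P450 enzymes and also general regulators such as *daf-16*, *skn-1* and *elt-2*. With extract in N2, 7 of them rose and 4 fell, beside 14.7% of all genes called higher and 20.4% called lower. *fat-3*, a fatty acid desaturase (1.0), *egl-9*, the hydroxylase that marks HIF-1 for removal (0.68), and *ceeh-2*, an epoxide hydrolase acting on P450 products (0.54), were among those that rose. *nhr-8*, a nuclear receptor for foreign compounds and cholesterol (-1.33), and *cytb-5.1*, a cytochrome b5 (-0.49), were among those that fell. In the *old-1* mutant 7 rose and 7 fell with extract, beside 12.7% and 11.3% of all genes. Among them were *fat-3*, at 0.70 again, *nhr-8*, at -1.22 again, and *ceeh-2* at -0.62. The response of *ceeh-2* differed between the strains by -1.16 in the interaction test. In *flor-1(icb93)* none was called with extract, while the untreated mutant had *daf-9*, the P450 of steroid hormone synthesis whose name lacks the prefix, at -1.27 and *cytb-5.1* at -1.01. In *dpy-7p::old-1* none rose and 9 fell, beside 24.9% and 20.9% of all genes, with a median of -0.40. Those that fell included *nhr-176*, the receptor that acts on *cyp-35D1* (-1.06), *hif-1* (-0.62) and *emb-8*, the P450 reductase (-0.47). In *old-1p::old-1* none of 23 tested was called, beside 0.0921% and 0.0246% of all genes.

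The *cyp-25A* genes, a run of 4 neighbours on chromosome III from 3832591 to 3852080, did not move as a block. *cyp-25A1* was called lower after extract in N2 and in the *old-1* mutant (-1.76 and -1.02), in the untreated *old-1* mutant (-1.26) and in *dpy-7p::old-1* (-1.21). With the oocyte and yolk covariate its value in the untreated *old-1* mutant was -0.63 and not called (adjusted p = 0.0469 by edgeR, with an unadjusted p above 0.01). The call in *dpy-7p::old-1* was lost without any library but *dpy-7p::old-1* library 2 (-1.76 to -0.97). *cyp-25A3* had 15.8, 9.80 and 9.42 CPM in untreated N2, 21.5, 21 and 22 CPM in the untreated *old-1* mutant and 5.78, 5.98 and 5.96 CPM in the untreated *flor-1* mutant. The 3 strains did not overlap, and the mutants stood on opposite sides of N2 (0.88 ± 0.15 and -0.98 ± 0.16). *cyp-25A4*, by contrast, had 10.4, 9.58 and 8.01 CPM in untreated N2 and was called in no comparison, with log2 fold changes from -0.50 in *dpy-7p::old-1* to 0.16 in the untreated *old-1* mutant. The fifth *cyp-25A* gene, *cyp-25A6*, was too scarce to be tested.

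The *cyp-33* genes are the most numerous family, with 18 members. In N2 with extract 1 of 17 tested rose and 2 fell. The one that rose, *cyp-33E1*, had 12.2, 11.1 and 11.3 CPM untreated and 21.2, 17.2 and 15.9 CPM with extract, without overlap (0.65 ± 0.12, adjusted p = 0.000777 by edgeR). *cyp-33C8* had 27.8, 14.8 and 17.5 CPM untreated and 8.98, 12.7 and 9.72 CPM with extract (-0.94 ± 0.18). It was also lower with extract in the *old-1* mutant, at 13.4, 13.9 and 13.4 CPM against 31.3, 30.8 and 26.6 CPM. In the *flor-1* mutant it was at 11.5, 9.99 and 10.3 CPM untreated and 11.1, 9.68 and 9.19 CPM with extract, so that untreated and extract libraries overlapped. Over the 10 groups *cyp-33C8* was lowest on average in N2 with extract (5.46 TPM) and highest in the untreated *old-1* mutant (13.2 TPM).

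Over the 7 comparisons that are not interactions, 52 members were called at least once and 22 never. The same tally was not made over all genes, so these counts have no background. Single comparisons called many genes, 5901 of 16850 for extract in N2 and 7396 of 16141 for *dpy-7p::old-1*. The 22 included the most abundant gene, *cyp-35A2*, and *cyp-36A1*, which acts downstream of HIF-1 in *C. elegans* and averaged 6.56 TPM. *cyp-36A1* had 12.2, 11.2 and 9.54 CPM in untreated N2 and 6.54, 7.78 and 11.3 CPM with extract, overlapping groups at -0.36 (adjusted p = 0.0739 by edgeR, with an unadjusted p above 0.01). Of the others, *cyp-25A4*, *cyp-33C4* and *cyp-33E3* averaged between 1.74 and 4.62 TPM and 17 averaged under 1 TPM, among them *cyp-35B1*, a target of DAF-16, at 0.515 TPM. *cyp-25A6*, *cyp-33C1* and *cyp-35B3* passed the filter on low counts in no experiment. Called 4 times were 7 members, *cyp-25A1*, *cyp-25A2*, *cyp-29A2*, *cyp-33C8*, *cyp-33E2*, *cyp-35C1* and *cyp-43A1*. Of 4 kinds of comparison, extract in N2, each untreated mutant and overexpression, *cyp-29A2* alone was called in all, always lower, while 15 other members were called in 3. The overexpression call of *cyp-29A2* is the one in *dpy-7p::old-1*, which depended on single libraries as given above. The comparisons of N2 with extract and of both untreated mutants share their untreated N2 libraries, and *cyp-29A2* was at 36 to 40.0 CPM there and at 21.5 to 27.8 CPM in the other 15 libraries of the extract experiment.

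**Figure D5:**
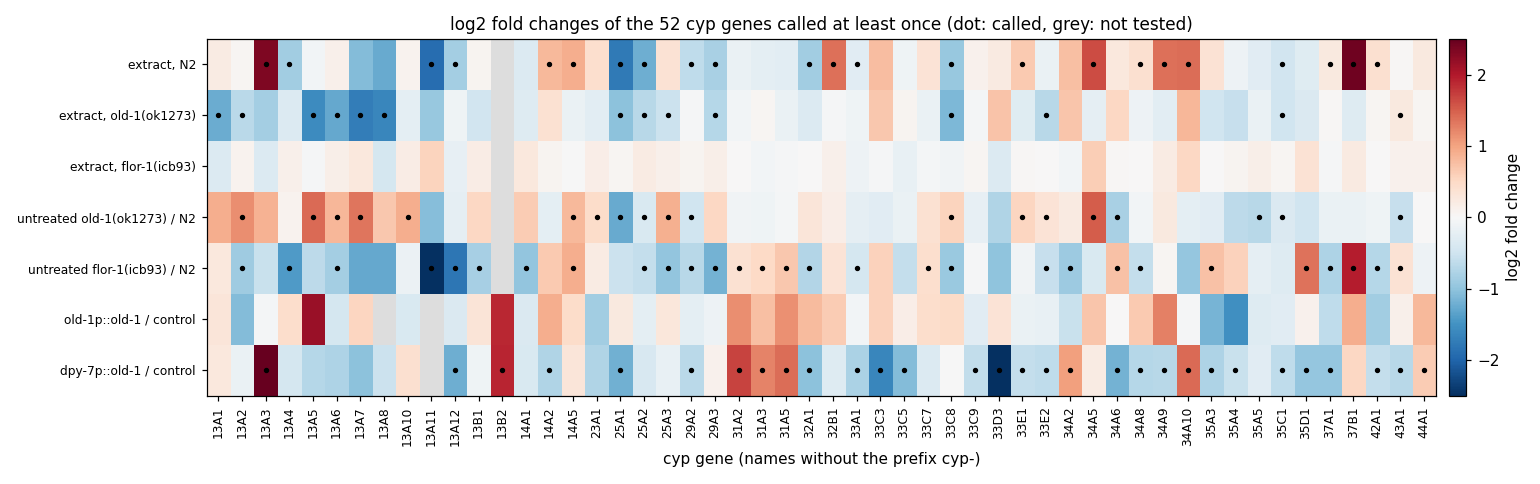
Log2 fold changes, as colours capped at 2.5 in either direction, of the 52 *cyp* genes called at least once (columns) in the 7 comparisons that are not interactions (rows), with a dot on called values and grey where a gene was not tested. The rows of extract in *flor-1(icb93)* and of *old-1p::old-1* hold no dot, and *cyp-29A2* is lower wherever it has one.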

How the data were processed

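RNA of whole L4 animals was sequenced in 30 libraries, in triplicate for each of 10 groups taken from the labels. The authors quantified the reads with kallisto against the WormBase transcriptome, and the deposited files hold estimated counts, length and effective length per transcript, not normalized between libraries. The authors tested them with sleuth's Wald test, for which the version is not given in the sources used here. Which library was sequenced by which of the study's providers is not given either. For the present analysis transcripts were joined to genes with Ensembl release 115 (WBcel235), 30413 by exact name and 6631 by sequence name, with 2 ambiguous and 12 unmatched. Estimated counts were summed per gene, rounded, filtered (filterByExpr, min.count 5, min.total.count 15), then scaled (TMM). The main test was glmQLFTest, the quasi-likelihood test, from edgeR 4.0.16 (R 4.3.3).

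A single fit held the 6 extract-experiment groups (18 libraries, 12 residual degrees of freedom). Both overexpression experiments had fits of their own (4 residual degrees of freedom). A gene was called at p under 0.01 and Benjamini-Hochberg adjusted p under 0.1 over all genes tested. Errors of log2 fold changes are standard errors. CPM was scaled within each experiment, except for the levels of *old-1* and the mean log2(CPM + 1) of gene lists, which use library totals alone. TPM was computed from counts and effective lengths. The filter left out *cyp-13B2*, *cyp-14A3*, *cyp-25A6*, *cyp-33C1* and *cyp-35B3* in the extract experiment, 9 members in *old-1p::old-1* and 8 in *dpy-7p::old-1*. Alternatives were RLE scaling, DESeq2 1.42.0, limma 3.58.1 on log2(TPM + 1), other filters, stricter thresholds, a replicate block, an oocyte and yolk covariate, fewer groups in the fit and leaving out libraries.

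Named genes were, per comparison, up to 10 called higher and 10 called lower with the smallest adjusted p and at least 1 CPM in the higher group, the 10 most abundant members, members called in at least 3 of 4 kinds of comparison, members with a described role, and relatives of these. The members, gene lists and alternatives were chosen with earlier results of these data known. On simulated counts with 100 genes changed by 2 on the log2 scale, the test recovered 84 for extract in N2, 16 for *old-1p::old-1* and 89 for *dpy-7p::old-1*. No sequence of the members was analysed here.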

Additional observations from a re-analysis of the deposited data

Results flagged for a closer look

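The response to extract differed between a mutant and N2 in an interaction test (edgeR quasi-likelihood, p under 0.01 and adjusted p under 0.1). Of 69 members tested, 18 were called in the *old-1* mutant and 14 in the *flor-1* mutant. Of all 16850 genes, 5232 were called for the *old-1* difference and 4020 for the *flor-1* difference, larger shares than among the members. Each value rests on 3 libraries in each of the 4 groups. Values are the log2 fold change in the mutant minus that in N2. For the *old-1* mutant, higher values belonged to *cyp-13A12* (0.73), *cyp-29A2* (0.60) and *cyp-25A2* (0.53). Lower values belonged to *cyp-13A3* (-3.18), *cyp-37B1* (-2.76), *cyp-34A5* (-1.86), *cyp-34A9* (-1.62), *cyp-13A5* (-1.52), *cyp-13A6* (-1.40), *cyp-32B1* (-1.40), *cyp-14A5* (-1.07), *cyp-33E3* (-1.02), *cyp-33E1* (-0.96), *cyp-25A3* (-0.91), *cyp-23A1* (-0.68), *cyp-35A2* (-0.66), *cyp-34A8* (-0.53) and *cyp-33E2* (-0.52). For the *flor-1* mutant, higher values belonged to *cyp-25A1* (1.80), *cyp-25A2* (1.43), *cyp-13A4* (0.98), *cyp-29A3* (0.95), *cyp-32A1* (0.86), *cyp-33C8* (0.85), *cyp-29A2* (0.70) and *cyp-35C1* (0.52). Lower values belonged to *cyp-13A3* (-2.68), *cyp-37B1* (-2.21), *cyp-32B1* (-1.25), *cyp-34A9* (-1.17), *cyp-14A5* (-0.90) and *cyp-33E1* (-0.61). Both sets use the same N2 libraries. With untreated N2 reduced to library A, the *old-1* differences of *cyp-33E2* and *cyp-34A8* were -0.34 and -0.43 and the *flor-1* differences of *cyp-13A4*, *cyp-33E1* and *cyp-35C1* were 1.04, -0.53 and 0.12, none of them called. With the oocyte and yolk covariate the *old-1* differences of *cyp-13A6*, *cyp-33E2* and *cyp-34A8* were -0.91, -0.31 and -0.44 and the *flor-1* differences of *cyp-13A4*, *cyp-33E1* and *cyp-35C1* were 1.06, -0.51 and 0.14, again not called.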

How the results depend on the processing

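Over 160 alternative counts of called members, 143 stayed within 1.5 times the count reported, 13 were lower and 4 higher. Fitting only the compared groups gave 14 called members for extract in N2, beside 2275 of all genes. Requiring a change of at least 1 on the log2 scale left 9 members for extract in N2, 7 for extract in the *old-1* mutant, 9 and 6 for the difference of the *old-1* and *flor-1* responses from N2, 5 and 6 for the untreated *old-1* and *flor-1* mutants, and 14 for *dpy-7p::old-1*. In *old-1p::old-1*, DESeq2 called 8, the oocyte and yolk covariate 6 and the comparison of 2 against 2, chosen after seeing the data, 25. Over all genes these settings called 1394, 1959 and 7407. In *dpy-7p::old-1*, limma on TPM called 15 and the covariate, whose level did not overlap between the 2 groups, left 12. Calls over all genes were 6355 and 2072 in these settings. Leaving out 1 library at a time gave 9 to 15 members for extract in the *old-1* mutant, 0 to 14 for *old-1p::old-1* and 19 to 29 for *dpy-7p::old-1*.

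Of 6316 values of single members under an alternative, 5790 kept their direction and their side of the threshold, 370 lost the call, 149 gained one and 7 reversed. With the covariate or with untreated N2 library A alone, *cyp-35C1* in the untreated *old-1* mutant came to 0.06 and 0.02, *cyp-13A2* with extract in N2 to -0.60 and -0.55, and *cyp-14A2* in the untreated *old-1* mutant to 0.94 and 0.85. *cyp-35A2* in the untreated *flor-1* mutant, not called in the main fit, came to 0.44 with library A alone. With the covariate it came to -0.44 and was called (adjusted p = 0.0172 by edgeR), so that these 2 settings gave opposite signs. The cause was not tested. In the extract experiment the level behind the covariate differed within a group mainly in untreated N2, at 2.04 in library A against 5.46 and 6.03 in B and C. The widest span in any other group was 6.77 to 7.03, in the untreated *flor-1* mutant. The covariate and library A alone thus draw on the same libraries and are not separate checks. On the TPM scale with limma the split of higher to lower members was 2 to 9 for extract in the *old-1* mutant and 4 to 11 for the *old-1* difference, and the median of all genes moved to 0.12 in the first and to 0.21 in *old-1p::old-1*.

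The replicate numbers did not pair the libraries, since no pair of groups had all 3 correlations of same-numbered libraries above 0.1. The replicate block gave 25 called members for extract in N2, 15 for extract in the *old-1* mutant, 0 for extract in the *flor-1* mutant, 16 and 13 for the differences, 20 and 29 for the untreated mutants, 0 for *old-1p::old-1* and 25 for *dpy-7p::old-1*. Every library correlated best with its own number in only 2 pairs of groups, N2 with extract and the *old-1* mutant with extract, and the extract groups of both mutants. Of the members, 27 averaged under 1 TPM, and whether detection depended on level was not tested.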
